A study of Mus musculus with 12 samples.

Results

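The transcripts described here code for 10 cytokine receptor chains or decoys: Il4ra, Il13ra1, Il21r, Il6ra, Il6st, Il1r2, Il17ra, Tnfrsf1a, Tnfrsf1b and Ifngr1. Their probe sets were those whose only gene symbol in the array annotation is 1 of these names, which gave 21 probe sets of the 20380 with a single symbol. The probe set with the highest 12-array mean stands for a gene, so the receptors make up 10 of 12393 genes tested. The set is named for receptors tuned by interleukin 10 (IL-10). The name and the choice of genes were made with results of these arrays known. Here 6 of the 10 genes changed with IL-10 in at least 1 genotype, as did 10% of all genes tested, and Il6st, Il1r2, Tnfrsf1a and Tnfrsf1b were called in neither.

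The cells were macrophages grown from mouse bone marrow of strain 129-SvEv-Tac, and both genotypes lacked Il10, so that IL-10 was supplied from outside. One genotype was IL10-/-, and the other, p50-/-IL10-/-, was in addition deficient in p50 and p105, products of Nfkb1 that belong to the NF-kB transcription factors. Cells of each genotype received nothing, 1 ng/ml lipopolysaccharide (LPS, a bacterial cell wall component), or 1 ng/ml LPS together with 0.3 ng/ml IL-10, and RNA was taken 4 h later. Each of the 6 groups had 2 arrays, called biological replicates in the labels, so the p-values reflect only the variation among these samples. Marrow was cultured for 5 days in 30% L-cell conditioned medium, which supplies macrophage growth factor, with 10% serum. Every group carries the Il10 deletion, so no group shows macrophages that make their own IL-10. In these genotypes the loss of p50 cannot be told apart from that of p105, and "without p50" means both.

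Values are log2 expression on the RMA scale, in which each array has nearly the same distribution, with array medians of 6.92 to 6.97. Lower quartiles were 5.49 to 5.61, and probe sets near that level are dim. Arrays of a group correlated at 0.992 to 0.997, and their number limits the precision. All 9 measured macrophage markers lay above the lower quartile on every array. The Il10 probe set read 6.54 to 9.11, and it checks nothing, because where it lies relative to the deletion was not stated. Transcripts of Nfkb1 were not analysed here. In such bulk samples, fewer cells of a type and less RNA per cell cannot be told apart.

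Most of these receptors signal through Janus kinases and STAT proteins. Il4ra is the shared chain of the IL-4 and IL-13 receptors and acts mainly through STAT6, with Il13ra1 as its partner outside lymphocytes. Il21r pairs with the common gamma chain, Il6ra binds IL-6 and hands it to the signal-transducing chain Il6st (gp130), and Ifngr1 binds interferon gamma. Il17ra is the common chain of IL-17 receptors, the TNF receptors Tnfrsf1a and Tnfrsf1b bind the same ligands but only the former has a death domain, and Il1r2 is a decoy that takes up IL-1 without signalling. IL-10 itself acts through STAT3, which is best known in macrophages for lowering inflammatory transcripts.

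Il4ra and Il21r are consecutive protein-coding genes on chromosome 7 in the RefSeq gene table and both were raised by IL-10 in both genotypes, so their promoter windows are shown beside that of Tnfrsf1b, which was raised by LPS in both genotypes. Each window runs from 250 bases before to 50 after the annotated start (RefSeq, GRCm38.p6), which was available for 9 of the 10 genes. Capitals mark matches to the motifs searched on both strands. These were the STAT palindromes TTCNNNGAA and TTCNNNNGAA, the interferon response core GAAANNGAAA and the NF-kB decamer.
Il4ra, chr7:125552021-125552320, plus strand: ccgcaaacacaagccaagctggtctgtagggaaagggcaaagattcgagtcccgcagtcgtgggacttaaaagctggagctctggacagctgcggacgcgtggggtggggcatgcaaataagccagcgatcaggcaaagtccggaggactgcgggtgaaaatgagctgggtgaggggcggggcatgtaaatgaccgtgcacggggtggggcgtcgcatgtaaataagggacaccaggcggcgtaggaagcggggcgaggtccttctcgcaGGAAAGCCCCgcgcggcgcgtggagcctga
Il21r, chr7:125603179-125603478, plus strand: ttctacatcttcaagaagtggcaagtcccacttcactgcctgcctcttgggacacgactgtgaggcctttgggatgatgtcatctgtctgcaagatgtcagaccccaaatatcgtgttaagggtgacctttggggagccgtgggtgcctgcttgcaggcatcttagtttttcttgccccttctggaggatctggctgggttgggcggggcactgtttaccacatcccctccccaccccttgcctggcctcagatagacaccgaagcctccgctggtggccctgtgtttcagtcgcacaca
Tnfrsf1b, chr4:145246821-145247120, minus strand: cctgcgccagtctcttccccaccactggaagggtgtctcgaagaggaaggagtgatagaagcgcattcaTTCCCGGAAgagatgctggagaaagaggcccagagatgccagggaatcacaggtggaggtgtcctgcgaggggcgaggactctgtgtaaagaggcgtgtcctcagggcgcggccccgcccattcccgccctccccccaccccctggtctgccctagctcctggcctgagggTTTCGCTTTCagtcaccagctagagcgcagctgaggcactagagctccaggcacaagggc
The Il4ra window held an NF-kB decamer that begins 20 bases downstream of the start, on the opposite strand. The Tnfrsf1b window held a TTCNNNGAA match 181 bases upstream and, on the opposite strand, an interferon response core 10 bases upstream. Single TTCNNNGAA matches also lay in the windows of Il1r2, 111 bases upstream, and Tnfrsf1a, 244 bases upstream. The Il21r window and 4 others (Il13ra1, Il6ra, Il6st and Ifngr1) held no match to these letters. Of all 32851 promoter windows of 300 bases, 8.3% held TTCNNNGAA, 6.95% TTCNNNNGAA, 8.46% the NF-kB decamer and 3.44% the interferon core.

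Adding IL-10 to LPS raised 5 of the 10 receptors in IL10-/- cells (Il4ra, Il13ra1, Il21r, Il6ra and Il17ra) and lowered 0 (0 also at an unadjusted p under 0.05). In p50-/-IL10-/- cells it raised 3 (Il4ra, Il21r and Il17ra) and lowered Ifngr1. Il4ra had the largest change, 5.28-fold and 5.15-fold up. The other calls were changes of 0.45 to 1.01 log2 units in size. Calls required an adjusted p below 0.05 (limma, with Benjamini-Hochberg adjustment over every gene in a contrast). Of all genes, 6.17% were called in IL10-/- cells (3.35% higher, 2.82% lower) and 6.57% in p50-/-IL10-/- cells (3.7% higher, 2.87% lower). The median difference was 0.47 over the 10 receptors against 0.01 over all genes in IL10-/- cells, and 0.31 against 0.05 in p50-/-IL10-/- cells. The receptors were proposed with results of these arrays known, so their share above the background is a description. Il4ra, Il21r and Il17ra were raised in both genotypes, as were 189 of all genes (1.53%).

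Each IL-10 call other than those of Il4ra ended when at least 1 single array was left out. Of the 5 calls in IL10-/- cells, 1 (Il4ra) was left without array 1 of LPS with IL-10, and 3 were left without array 2 of that group. Of the 4 calls in p50-/-IL10-/- cells, 2 were left without either LPS array or without array 2 of LPS with IL-10. Means of the marker lists of other cell types moved by -0.19 to 0.13 log2 when IL-10 was added to LPS, and some did so without overlap between arrays. In IL10-/- cells the 10 measured neutrophil markers averaged 8.44 and 8.49 with LPS against 8.34 and 8.35 with IL-10 added, and the 7 B cell markers 6.14 and 6.14 against 5.98 and 5.92. Of the B cell markers, Blnk ranged from 8.82 to 11.81 over the arrays, while the other 6 averaged 5.34 to 5.62. In p50-/-IL10-/- cells the neutrophil mean was 7.93 and 7.96 against 7.87 and 7.78. The dendritic cell, mast cell and basophil, erythroid and stromal means were higher there with IL-10, by 0.09, 0.13, 0.12 and 0.12, again without overlap. Their part in the result was not tested.

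**Figure D1:**
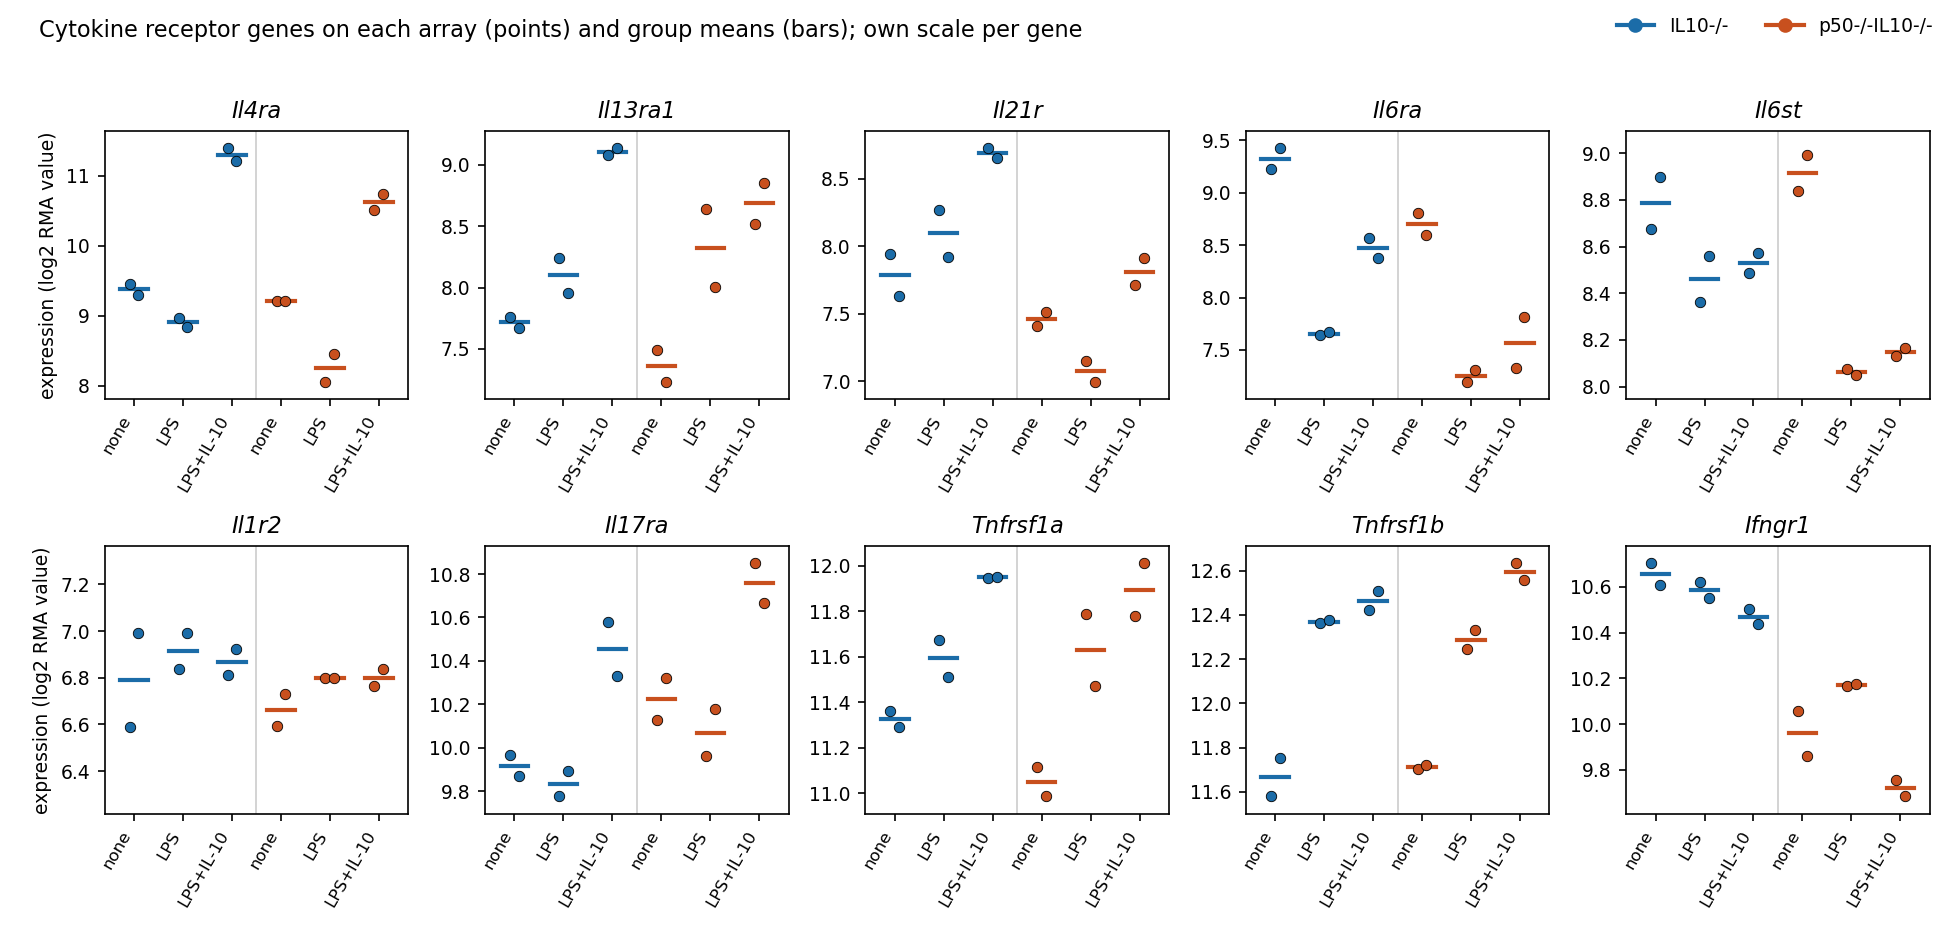
Expression of the 10 receptor genes on each array (y axis, log2 RMA value, own scale per gene) in the 6 genotype and stimulus groups (x axis). Points are arrays, 2 per group, and bars are group means. Il4ra stands at 10.51 to 11.39 on the 4 arrays with IL-10 and at 8.06 to 9.45 on the other 8.

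**Figure D2:**
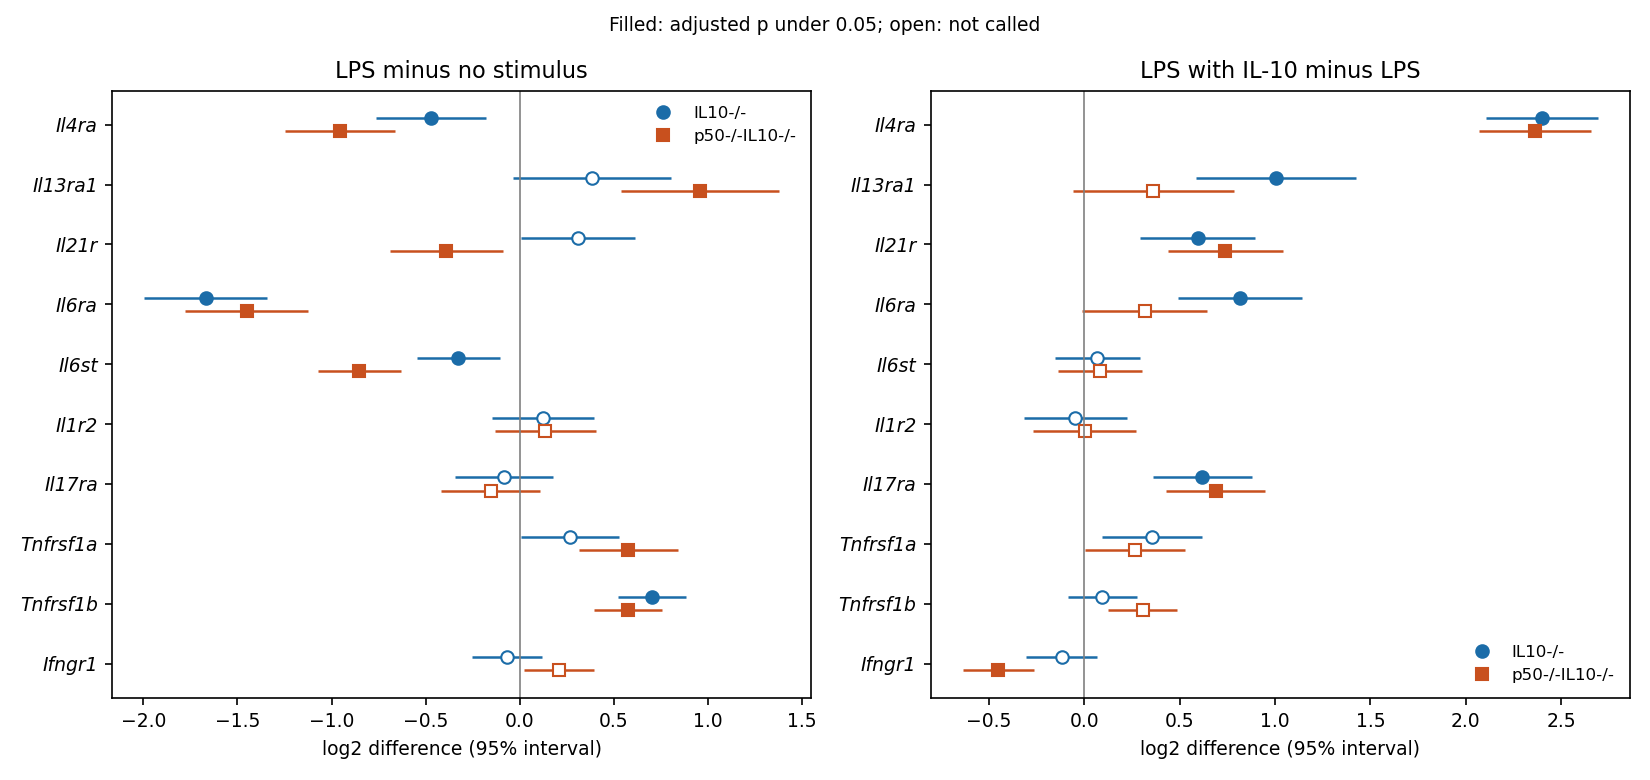
Log2 differences (x axis) of each receptor (y axis) for LPS minus no stimulus (left) and LPS with IL-10 minus LPS (right), with 95% intervals from the fit over all genes. Filled marks passed an adjusted p under 0.05, among them Il4ra in all 4 comparisons, down with LPS and up with IL-10.

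LPS alone moved the receptors in both directions. In IL10-/- cells it raised Tnfrsf1b and lowered Il4ra, Il6ra and Il6st, so 4 of 10 were called where 24.8% of all genes were (7.76% higher, 17.1% lower). In p50-/-IL10-/- cells 7 of 10 were called against 32.4% of all genes (10.3% higher, 22.1% lower): Il13ra1, Tnfrsf1a and Tnfrsf1b rose, and Il4ra, Il21r, Il6ra and Il6st fell. For LPS with IL-10 against no stimulus, 7 of 10 were called in IL10-/- cells (19.5% of all genes, 6.94% higher and 12.5% lower). In p50-/-IL10-/- cells 8 of 10 were called (37.9% of all genes, 16.7% higher and 21.2% lower). In those comparisons with no stimulus, Il4ra, Il13ra1, Il17ra, Tnfrsf1a and Tnfrsf1b were higher in both genotypes and Il6ra was lower in both.

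Il4ra fell with LPS and rose above its resting level when IL-10 was added. In IL10-/- cells (gene ID 16190) the arrays read 9.45 and 9.30 without stimulus, 8.97 and 8.84 with LPS, and 11.39 and 11.21 with both. In p50-/-IL10-/- cells they read 9.21 and 9.21, then 8.06 and 8.46, then 10.51 and 10.73. All arrays with IL-10 lay above all arrays without it. The rise over LPS was 2.40 ± 0.13 log2 in IL10-/- cells (SE of the fit, n = 2 arrays per group, adjusted p = 8.12e-06) and 2.36 ± 0.13 in p50-/-IL10-/- cells (adjusted p = 9.54e-06). By size these ranked 18 and 6 among all 12393 genes, and both calls were kept in all 12 fits that left out 1 array. Against no stimulus the gene stood 3.80-fold higher in IL10-/- cells and 2.66-fold higher in p50-/-IL10-/- cells.

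On the main probe set, the fall of Il4ra with LPS was larger where p50 was missing, without the difference of the falls passing the test. It was -0.95 ± 0.13 in p50-/-IL10-/- cells (adjusted p = 0.000261) and -0.47 ± 0.13 in IL10-/- cells (adjusted p = 0.0234), and the difference between these was -0.48 (95% interval -0.90 to -0.07, adjusted p = 0.385). The call in IL10-/- cells ended without either unstimulated array (adjusted p = 0.136 and 0.0508), without either LPS array (0.0512 and 0.0893), and with arrays centred on their medians (0.0622). Neither of the other 2 Il4ra probe sets was called for it (-0.13 and -0.22). Without p50, 1423996_a_at went from 8.70 to 8.12 with LPS. There 1447858_x_at went from 7.23 to 7.05, no larger a fall than from 7.34 to 7.12 in IL10-/- cells. All 3 probe sets rose with IL-10 in both genotypes, by 2.28 and 2.05 on 1423996_a_at and by 0.85 and 0.74 on 1447858_x_at.

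Il13ra1, the partner chain of Il4ra, rose stepwise from no stimulus through LPS to LPS with IL-10 in IL10-/- cells. Arrays of that genotype read 7.76 and 7.67, then 8.24 and 7.96, then 9.08 and 9.13, with no overlap between the groups. Without p50 they read 7.49 and 7.23, then 8.64 and 8.01, then 8.52 and 8.85, and the 2 stimulated groups overlapped. IL-10 added 1.01 ± 0.19 to the LPS level in IL10-/- cells (2.01-fold, adjusted p = 0.00988) and 0.36 ± 0.19 in p50-/-IL10-/- cells (adjusted p = 0.279). The difference of those effects was -0.64 with an interval of -1.24 to -0.05 and an adjusted p of 0.398, so a genotype dependence was not established. The IL10-/- call ended without either array of LPS with IL-10 (adjusted p = 0.0521 and 0.0674).

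The LPS step of Il13ra1 was called without p50 (0.96 ± 0.19, adjusted p = 0.00263) and not on the main probe set in IL10-/- cells (0.39 ± 0.19, adjusted p = 0.178). Of its 4 other probe sets, 3 were called higher with LPS in both genotypes, with 0.66 to 0.85 in IL10-/- cells and 1.11 to 1.27 without p50. The same 3 rose with IL-10 in IL10-/- cells (0.70 to 0.82) and were not called for it without p50 (0.22 to 0.28). The remaining probe set, 1425625_at, read 5.31 to 6.01, close to the lower quartile, and was called for neither stimulus step. Against no stimulus, LPS with IL-10 raised the gene 2.62-fold in IL10-/- cells and 2.50-fold without p50.

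Il21r responded to IL-10 in both genotypes and was lower without p50 once cells had met LPS. Its single probe set read 7.94 and 7.63 without stimulus, 8.27 and 7.92 with LPS, and 8.73 and 8.65 with both in IL10-/- cells. Where p50 was missing the values were 7.41 and 7.51, then 7.15 and 6.999, then 7.72 and 7.91. In each genotype the arrays with IL-10 lay above those with LPS alone. The IL-10 effect was 0.59 ± 0.14 (adjusted p = 0.0265) and 0.74 ± 0.14 (adjusted p = 0.0104), and the difference between genotypes was 0.14 (interval -0.28 to 0.57).

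Both IL-10 calls of Il21r depended on single arrays. In IL10-/- cells the call ended without array 2 of LPS (difference 0.42, adjusted p = 0.103) or without either array of LPS with IL-10 (adjusted p = 0.143 and 0.100). In p50-/-IL10-/- cells it ended without array 2 of LPS (0.0657) or of LPS with IL-10 (0.0978). The genotype difference did not. With LPS the gene was 2.03-fold lower without p50 (-1.02 ± 0.14, adjusted p = 0.000964), with IL-10 added it was 1.84-fold lower (-0.88 ± 0.14, adjusted p = 0.00192), and both calls were kept in all 12 fits that left out 1 array. Unstimulated cells differed by -0.32 (adjusted p = 0.313).

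The direction of the LPS response of Il21r was positive in IL10-/- cells (0.31, adjusted p = 0.133) and negative without p50 (-0.39 ± 0.14, adjusted p = 0.0499). The difference of these responses was -0.70, with an interval of -1.12 to -0.27 and an adjusted p of 0.160. The fall without p50 sat at the threshold. It was kept in 4 of the 12 fits that left out 1 array and had an adjusted p of up to 0.224, without array 2 of LPS. Its adjusted p was 0.0829 without array 1 of LPS, 0.100 and 0.218 without array 1 or 2 of the unstimulated cells, and 0.0577 to 0.0638 without any array of LPS with IL-10 of either genotype.

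Il6ra was the receptor that LPS lowered most. Unstimulated IL10-/- cells read 9.23 and 9.43, LPS brought this to 7.65 and 7.67, and LPS with IL-10 gave 8.57 and 8.38. The corresponding values without p50 were 8.81 and 8.60, 7.20 and 7.31, and 7.33 and 7.81. LPS thus lowered the transcript 3.18-fold in IL10-/- cells (-1.67 ± 0.15, adjusted p = 1.93e-05) and 2.73-fold in p50-/-IL10-/- cells (-1.45 ± 0.15, adjusted p = 3.03e-05). In IL10-/- cells it stood 0.82 ± 0.15 higher with LPS and IL-10 than with LPS alone (adjusted p = 0.00781), still 1.81-fold below no stimulus. That call ended without array 1 of LPS with IL-10 (adjusted p = 0.0671).

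Without p50 the IL-10 effect on Il6ra was 0.32 ± 0.15 and was not called (interval -0.01 to 0.64, adjusted p = 0.227). The 2 IL-10 effects differed by -0.50 (interval -0.96 to -0.04, adjusted p = 0.398). With LPS and IL-10 the gene was 1.87-fold lower without p50 (-0.90 ± 0.15, adjusted p = 0.00249), a call kept in all 12 fits that left out 1 array. Unstimulated cells differed by -0.62 (adjusted p = 0.0561), which passed the threshold in 4 alternatives, namely without either p50-/-IL10-/- array of LPS with IL-10 (0.0209), with an intensity trend and robust prior (0.0484), and in a fit on only the groups compared (0.0482). The second Il6ra probe set, 1422270_a_at, read 7.37 to 7.70 on all arrays and showed none of these changes (LPS -0.02 in both genotypes, IL-10 0.00 and 0.06).

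On its main probe set Il6st, the signalling chain that Il6ra uses, fell with LPS and was not called for IL-10. It read 8.68 and 8.90 without stimulus, 8.36 and 8.56 with LPS, and 8.49 and 8.57 with both in IL10-/- cells. In the absence of p50 the readings were 8.84 and 8.99, 8.08 and 8.05, and 8.13 and 8.17. Stimulated arrays without p50 lay below all stimulated arrays of IL10-/- cells. The LPS fall was -0.85 ± 0.10 without p50 (1.81-fold, adjusted p = 8.22e-05) and -0.33 ± 0.10 in IL10-/- cells (1.25-fold, adjusted p = 0.0356), and these differed by -0.53 (interval -0.84 to -0.21, adjusted p = 0.144). IL-10 added 0.07 (interval -0.15 to 0.29) and 0.08 (interval -0.14 to 0.31).

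The fall of Il6st in IL10-/- cells was not called without array 2 of the unstimulated cells (adjusted p = 0.273), without array 1 of LPS (0.227), without either p50-/-IL10-/- array of LPS with IL-10 (0.0517), with median centring (0.0982) or in a fit on only the groups compared (0.147). The genotype difference was -0.40 ± 0.10 with LPS (adjusted p = 0.0260) and -0.38 ± 0.10 with LPS and IL-10 (adjusted p = 0.0246). The former ended without array 2 of IL10-/- LPS (0.148) or either p50-/-IL10-/- LPS array (0.107 and 0.105), and the latter without any of the 4 arrays compared (0.0569 to 0.146). The other 2 probe sets of Il6st read 5.80 to 6.62. Their means rose with LPS, except that 1460295_s_at went from 6.53 to 6.43 without p50. The probe set 1460295_s_at was 0.57 ± 0.12 higher without p50 in unstimulated cells (adjusted p = 0.0331), where the main probe set differed by 0.13. With LPS it also read higher without p50 (6.43 against 6.09), as did 1421239_at (6.28 against 6.05), opposite to the main probe set. With LPS and IL-10 both read lower without p50 (6.14 against 6.33 and 6.06 against 6.30). The means of both were thus higher with LPS and IL-10 than with LPS alone in IL10-/- cells, and lower in p50-/-IL10-/- cells.

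Il17ra, which was not moved by LPS, rose with IL-10 in both genotypes. Arrays read 9.96 and 9.87 without stimulus, 9.78 and 9.89 with LPS, and 10.58 and 10.33 with both in IL10-/- cells. Cells without p50 gave 10.13 and 10.32, 9.96 and 10.18, and 10.85 and 10.66. The arrays with IL-10 were the highest in each genotype. IL-10 raised the gene 1.54-fold (0.62 ± 0.12, adjusted p = 0.0104) and 1.61-fold (0.69 ± 0.12, adjusted p = 0.00704), while LPS alone changed it by -0.08 (interval -0.34 to 0.18) and -0.15 (interval -0.42 to 0.11). The second probe set, 1420904_at, rose by 0.75 and 0.66 and was also called in both genotypes.

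For Il17ra the difference between the genotypes' IL-10 effects was 0.07 (interval -0.30 to 0.44). The call in IL10-/- cells ended without array 1 of LPS (adjusted p = 0.0714) or array 1 of LPS with IL-10 (0.0918), and in a fit on only the groups compared (0.0718). That in p50-/-IL10-/- cells ended without array 1 of LPS (0.0733) or array 1 of LPS with IL-10 (0.0673). On 1420904_at, cells without p50 read 9.16 against 8.66 in IL10-/- cells without stimulus, 9.19 against 8.72 with LPS, and 9.84 against 9.47 with both. On the main probe set, levels without p50 were higher by 0.31, 0.23 and 0.30 at the 3 stimuli, and none of these differences was called (adjusted p = 0.260, 0.257 and 0.101). Against no stimulus, LPS with IL-10 gave 0.54 ± 0.12 in IL10-/- cells, a call that ended without array 2 of no stimulus (0.0661) or array 1 of LPS with IL-10 (0.0860). In p50-/-IL10-/- cells it gave 0.53 ± 0.12, a call that ended without array 1 of no stimulus (0.0506).

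Il1r2, the IL-1 decoy receptor, was called in none of the 11 contrasts with limma, and its lowest unadjusted p was 0.283. All 12 arrays lay between 6.59 and 6.99, and the group means spanned 0.25. The IL-10 effect was -0.05 (interval -0.32 to 0.22) in IL10-/- cells and 0.00 (interval -0.27 to 0.27) in p50-/-IL10-/- cells, so a change above 0.27 log2 units upward falls outside both intervals. The LPS effect was 0.12 and 0.14.

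Tnfrsf1b, the TNF receptor without a death domain, was raised by LPS in both genotypes and stayed up with IL-10. In IL10-/- cells it went from 11.58 and 11.75 to 12.36 and 12.38, and to 12.42 and 12.51 with IL-10. Without p50 it went from 11.70 and 11.72 to 12.24 and 12.33, and to 12.63 and 12.56. Every stimulated array lay above every unstimulated one. LPS raised it 1.63-fold in IL10-/- cells (0.70 ± 0.08, adjusted p = 0.000131) and 1.49-fold without p50 (0.58 ± 0.08, adjusted p = 0.000314), and both calls were kept in all 12 fits that left out 1 array. The dimmer probe set 1448951_at rose more, by 1.55 and 1.31. Its 2 arrays of IL10-/- cells with LPS lay far apart, with a standard deviation of 0.72 log2, against 0.14 for those without p50.

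IL-10 changed Tnfrsf1b by 0.09 (interval -0.09 to 0.28) in IL10-/- cells. Without p50 the change was 0.31 ± 0.08 and missed the threshold (adjusted p = 0.0513). Among the alternatives with no replicate block, it passed without either IL10-/- LPS array (0.0495), with genes below the lower quartile left out (0.0472) and with an intensity trend and robust prior (0.0365). Genotype differences on the main probe set were -0.08 to 0.13 and none was called. On 1448951_at, cells without p50 read 9.21 against 8.75 in IL10-/- cells without stimulus, 10.52 against 10.30 with LPS, and 10.83 against 10.47 with both.

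Tnfrsf1a, the death domain TNF receptor, rose by small steps. In IL10-/- cells the readings were 11.36 and 11.29, 11.68 and 11.51, and 11.95 and 11.95 over the 3 stimuli, and 11.12 and 10.99, 11.79 and 11.47, and 11.78 and 12.01 without p50. The groups did not overlap in IL10-/- cells, whereas LPS with and without IL-10 overlapped where p50 was missing. The LPS step was called without p50 (0.58 ± 0.12, adjusted p = 0.00324) and not in IL10-/- cells (0.27 ± 0.12, adjusted p = 0.133), with a difference of 0.31 between them (interval -0.06 to 0.68, adjusted p = 0.638). The IL-10 step was called in neither (0.35, adjusted p = 0.130, and 0.27, adjusted p = 0.207). Both together raised the gene 1.54-fold in IL10-/- cells (adjusted p = 0.00375) and 1.79-fold without p50 (adjusted p = 0.000335).

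Over the 6 group means, Tnfrsf1a followed Il13ra1 with a Pearson r of 0.977 and Tnfrsf1b with 0.920, while Il6st and Tnfrsf1b had an r of -0.798. These are descriptions over 6 points that share arrays and stimuli.

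Ifngr1, the binding chain of the interferon gamma receptor, was the receptor that differed by genotype at every stimulus. IL10-/- arrays read 10.70 and 10.61 without stimulus, 10.62 and 10.55 with LPS, and 10.50 and 10.44 with both. Without p50 they read 10.06 and 9.86, 10.17 and 10.17, and 9.76 and 9.68. All 6 arrays without p50 lay below all 6 IL10-/- arrays. The differences were -0.70 ± 0.08 unstimulated (1.62-fold lower, adjusted p = 0.00194), -0.42 ± 0.08 with LPS (1.34-fold, adjusted p = 0.00954) and -0.75 ± 0.08 with LPS and IL-10 (1.68-fold, adjusted p = 0.000316). The call with LPS ended without array 1 of p50-/-IL10-/- LPS (adjusted p = 0.0617) and when only the groups compared were fitted (0.0710), whereas the other 2 were kept in all 12 fits that left out 1 array.

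IL-10 lowered Ifngr1 in p50-/-IL10-/- cells by -0.45 ± 0.08 (1.37-fold, adjusted p = 0.0116) and changed it by -0.12 in IL10-/- cells (interval -0.30 to 0.07). The difference between these effects was -0.33 (interval -0.60 to -0.07) and did not pass (adjusted p = 0.353). The call ended without either p50-/-IL10-/- LPS array (0.0727 and 0.0559) or array 2 of LPS with IL-10 (0.0958). Against no stimulus, LPS with IL-10 gave -0.24 ± 0.08 without p50 (adjusted p = 0.0461), which was kept in 3 of the 12 fits that left out 1 array and reached 0.290 without array 1 of the unstimulated cells. Without array 1 or 2 of LPS with IL-10 it was 0.0851 and 0.192, and without any other array that ended the call 0.0583 to 0.0598. Median centring gave 0.131, fitting only the groups compared gave 0.0755, and the alternatives that tested all probe sets or took the most variable one 0.0553 and 0.0551.

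On the main probe sets of the 10 receptors, the genotype difference was downward wherever it was called. The Il6st probe set 1460295_s_at was called higher without p50 in unstimulated cells. With LPS, this probe set and 1421239_at also read higher without p50. The Il17ra probe set 1420904_at and the Tnfrsf1b probe set 1448951_at read higher without p50 at each stimulus. Without stimulus 1 receptor was lower without p50 (Ifngr1) where 2.57% of all genes were called, and with LPS 4 were lower (Il4ra, Il21r, Il6st and Ifngr1; 12.4% of all genes). With LPS and IL-10 5 were lower (those 4 and Il6ra; 18% of all genes), and 0 were higher at any stimulus (Il17ra was higher at an unadjusted p under 0.05 without stimulus, 0.0256, and with LPS and IL-10, 0.0267). Of all genes, 1.31%, 6.72% and 10.4% were called lower at these stimuli and 1.26%, 5.66% and 7.58% higher. Besides the main probe set of Il4ra, 1423996_a_at read 8.12 without p50 against 8.53 in IL10-/- cells with LPS, and 1447858_x_at 7.05 against 7.12. With LPS and IL-10 they read 10.16 against 10.81 and 7.79 against 7.97. On the main probe set Il4ra was 1.57-fold lower with LPS (-0.65 ± 0.13, adjusted p = 0.00995) and 1.61-fold lower with LPS and IL-10 (-0.68 ± 0.13, adjusted p = 0.00614). Those calls ended without array 1 of p50-/-IL10-/- LPS (-0.45, adjusted p = 0.0813) and array 1 of p50-/-IL10-/- LPS with IL-10 (0.0559). The count with LPS fell to 1 without array 1 of p50-/-IL10-/- LPS, and the count with LPS and IL-10 to 3 without array 1 of p50-/-IL10-/- LPS with IL-10.

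Markers of other cells differed between the genotypes as well. The mean of 10 measured neutrophil markers, of which 10 lay above the lower quartile on every array, was 8.34 to 8.49 on IL10-/- arrays and 7.78 to 7.96 on p50-/-IL10-/- arrays. The 10 stromal markers, 3 of them below the lower quartile on every array, averaged 5.95 to 6.32 and 5.61 to 5.88. The 8 measured dendritic cell markers, 4 of them below it on every array, averaged 5.79 to 5.93 and 6.13 to 6.34. That difference came with Itgax, an integrin chain that macrophages also carry, which read 7.49 to 8.40 and 10.31 to 10.96, whereas the other 7 markers averaged 5.55 to 5.62 and 5.51 to 5.70. Their part in the lower receptor values was not tested. Macrophage markers averaged 11.74 to 12.04 over all arrays, and T and NK cell, mast cell and basophil, and erythroid lists stayed within 5.74 to 5.90, 5.59 to 5.80 and 6.93 to 7.20.

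**Figure D3:**
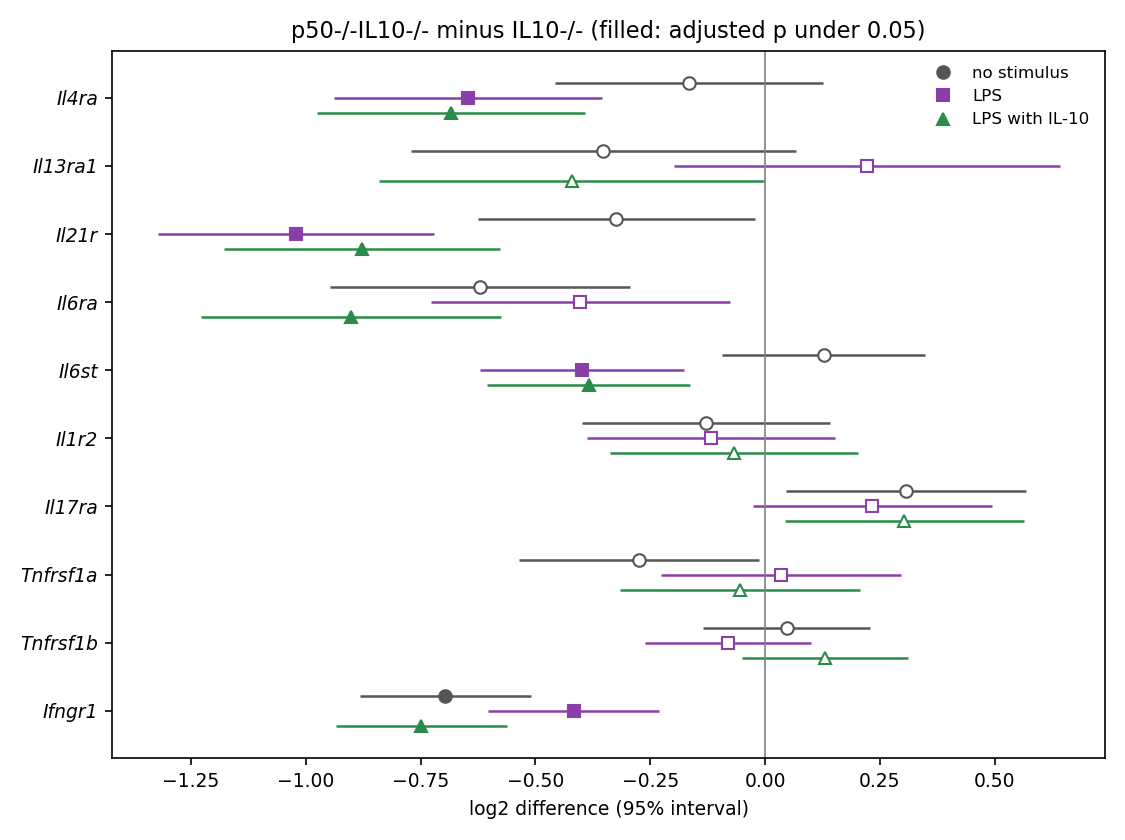
Log2 differences between p50-/-IL10-/- and IL10-/- cells (x axis) for each receptor (y axis) at each of the 3 stimuli, with 95% intervals. Filled marks passed an adjusted p under 0.05 and all lie left of 0 (main probe sets); Ifngr1 is filled at all 3 stimuli.

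Direct tests of whether genotype changed a response called 0 of the 10 receptors for LPS (1.19% of all genes) and 0 for IL-10 (0.137% of all genes) with limma. At an unadjusted p under 0.05 there were 4 receptors for LPS (Il4ra, Il21r, Il6st and Ifngr1) and 3 for IL-10 (Il13ra1, Il6ra and Ifngr1). The percentages above hold for adjusted p, and the share of all genes at the unadjusted threshold was not counted. These unadjusted counts thus have no background, and the receptors were chosen with results of these arrays known. For Il4ra the interval of the difference of IL-10 effects ran from -0.45 to 0.38 around -0.04. A receptor called in a single genotype is therefore not shown to depend on p50.

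**Figure D4:**
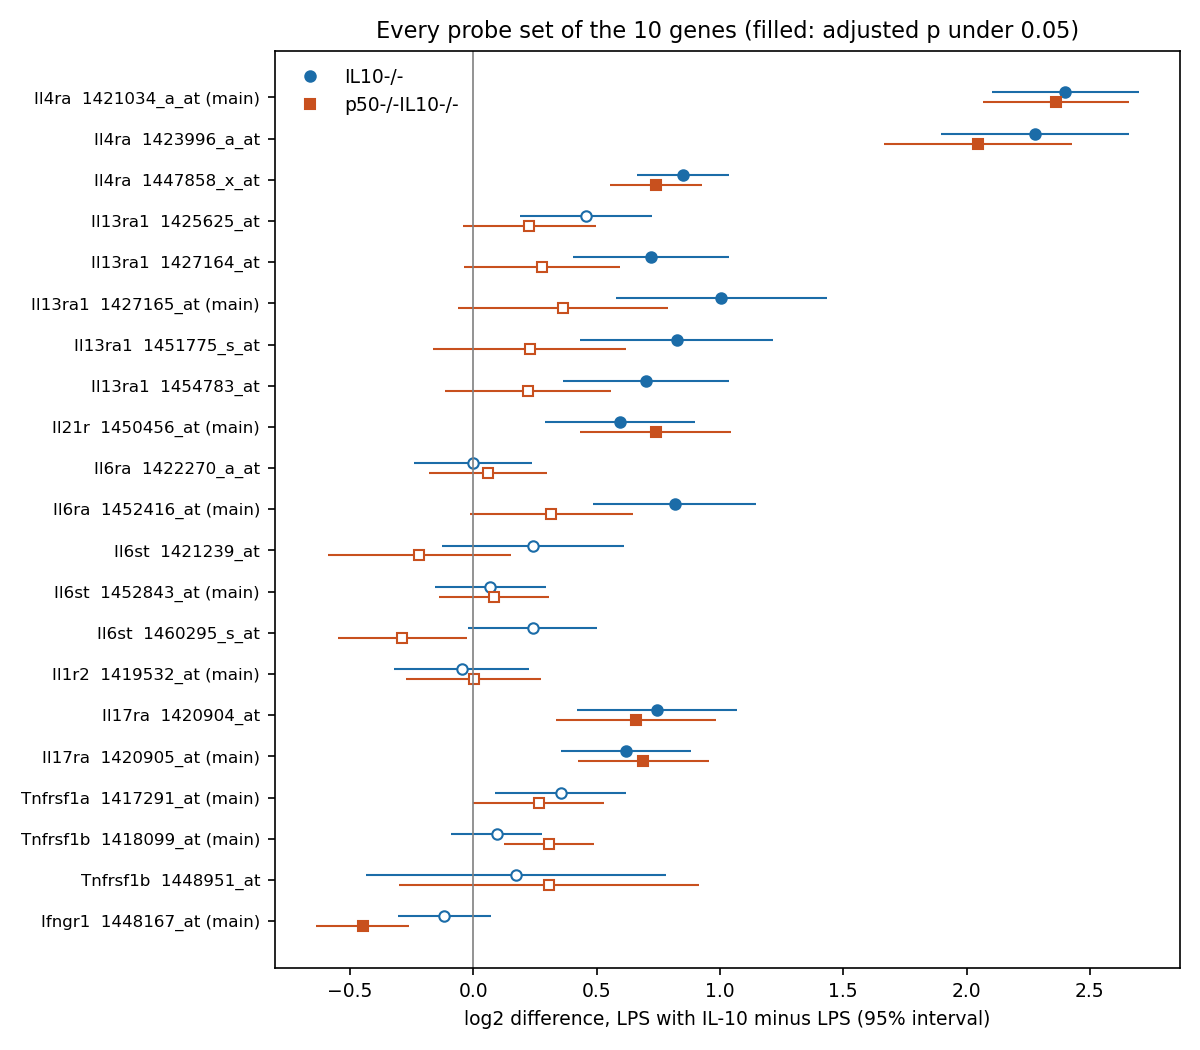
IL-10 effect (x axis, log2 difference of LPS with IL-10 minus LPS, with 95% intervals) on each of the 21 probe sets (y axis) in both genotypes, tested among all 20380 probe sets with 1 symbol. The 3 Il4ra and 2 Il17ra probe sets are filled in both genotypes, while the second Il6ra probe set lies at 0.00 and 0.06.

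None of the measured partner chains of these receptors was called for IL-10. Of 13 chains listed, 11 were measured, and limma called 0 in either genotype (2 at an unadjusted p under 0.05 in IL10-/- cells and 2 in p50-/-IL10-/- cells). Of all genes, 6.17% were called in IL10-/- cells and 6.57% in p50-/-IL10-/- cells, so with 11 chains a count of 0 is close to that share. Ifngr2, the partner of Ifngr1, read 9.68 to 10.14 with LPS in IL10-/- cells and 10.41 to 10.50 with IL-10 added. The signalling IL-1 receptor Il1r1, which neighbours Il1r2 on the chromosome, read 7.09 to 7.48 in unstimulated IL10-/- cells and 7.99 to 8.18 without p50 (0.80 ± 0.16 higher, adjusted p = 0.0253). LPS then lowered Il1r1 without p50 by -0.54 ± 0.16 (adjusted p = 0.0243). The IL-1 receptor accessory protein Il1rap was 0.33 ± 0.09 higher without p50 in LPS-treated cells (adjusted p = 0.0482). LPS moved 1 partner chain in IL10-/- cells (9.09%, against 24.8% of all genes) and 4 in p50-/-IL10-/- cells (36.4%, against 32.4%).

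Among the ligands of the receptors, IL-10 lowered Il6 and Il1a and raised Il1rn in both genotypes. Of 13 measured of 16 listed, IL-10 raised 1 and lowered 3 in IL10-/- cells, and raised 2 and lowered 2 in p50-/-IL10-/- cells. That left 9 not called in each. The called share was 30.8% in each, where 6.17% and 6.57% of all genes were called. The median IL-10 effect over the ligands was -0.04 against 0.01 over all genes in IL10-/- cells, and 0.10 against 0.05 without p50. Il6, the ligand of Il6ra, rose with LPS by 4.50 ± 0.33 in IL10-/- cells and 6.06 ± 0.33 without p50, and IL-10 lowered it by -4.27 ± 0.33 (adjusted p = 3.48e-05) and -3.51 ± 0.33 (adjusted p = 0.000263). Tnf, the ligand of both TNF receptors, rose with LPS by 3.91 ± 0.11 and 3.48 ± 0.11. IL-10 lowered Tnf in IL10-/- cells by -1.19 ± 0.11 (adjusted p = 0.000135), with -0.36 ± 0.11 without p50 (adjusted p = 0.0856). The difference of these IL-10 effects was 0.83 (interval 0.48 to 1.18) and was not called by limma (adjusted p = 0.102). Lta, a further ligand of both TNF receptors, rose with IL-10 without p50 (0.45 ± 0.10, adjusted p = 0.0287) and differed by 0.19 in IL10-/- cells (adjusted p = 0.392). The IL-1 gene Il1a fell with IL-10 by -1.38 ± 0.19 and -1.19 ± 0.19. Its LPS response was higher without p50 by 1.45 (interval 0.85 to 2.04), which limma called (adjusted p = 0.0330). The other IL-1 gene, Il1b, was called in neither genotype (-0.09 ± 0.26, adjusted p = 0.932, and 0.70 ± 0.26, adjusted p = 0.136). Il1rn, the soluble antagonist of IL-1 receptors, rose with IL-10 by 1.94 ± 0.16 and 1.06 ± 0.16.

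Genes of proximal signalling and receptor shedding showed a mixed pattern, with 19 of 21 measured. IL-10 raised 3 and lowered 2 of them in IL10-/- cells, and raised 3 and lowered 1 without p50. These were 26.3% and 21.1% of the list, where 6.17% and 6.57% of all genes were called. Stat3, which IL-10 and IL-6 receptors activate, rose by 1.08 ± 0.10 (adjusted p = 9.34e-05) and 0.96 ± 0.10 (adjusted p = 0.000334). Jak3, the kinase of the common gamma chain, rose by 0.68 ± 0.13 and 0.63 ± 0.13, Jak1 by 0.52 ± 0.09 in IL10-/- cells, and Stat5a by 0.52 ± 0.12 without p50. Tyk2, another Janus kinase, fell by -0.72 ± 0.11 in IL10-/- cells. Birc2, an inhibitor of apoptosis bound to TNF receptor complexes, fell by -0.89 ± 0.10 and -0.45 ± 0.10. Stat6, the STAT protein of the IL-4 receptor, was lower without p50 by -0.39 ± 0.07 with LPS (adjusted p = 0.00697) and by -0.39 ± 0.07 with LPS and IL-10 (adjusted p = 0.00546). LPS raised 6 of these genes and lowered 4 in each genotype, 52.6% of the list against 24.8% and 32.4% of all genes. Among the rises were Jak2 (2.00 ± 0.08 and 1.99 ± 0.08) and Birc2 (1.61 ± 0.10 and 2.08 ± 0.10). Among the falls were Irs2, a substrate of the IL-4 receptor (-0.66 ± 0.14 and -0.90 ± 0.14), and Adam10, whose product sheds receptors from the cell surface (-0.44 ± 0.09 and -0.43 ± 0.09).

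Among 35 measured of 36 other cytokine receptors, IL-10 raised 4 and lowered 3 in IL10-/- cells and raised 4 and lowered 2 in p50-/-IL10-/- cells. These were 20% and 17.1% of the list, where 6.17% and 6.57% of all genes were called. Raised in both, and all named here, were Csf3r, the receptor for granulocyte colony-stimulating factor (1.33 ± 0.12 and 1.01 ± 0.12), the shared chain Csf2rb (0.56 ± 0.11 and 0.57 ± 0.11), the lymphotoxin receptor Ltbr (0.43 ± 0.09 and 0.66 ± 0.09) and the type I interferon receptor chain Ifnar1 (0.52 ± 0.10 and 0.38 ± 0.10). Il10ra, the binding chain for IL-10, fell in both (-0.86 ± 0.12 and -0.91 ± 0.12). The other falls were Il15ra, the binding chain for IL-15 (-0.97 ± 0.22), and Cd40 (-0.66 ± 0.16) in IL10-/- cells, and Tnfrsf21, a death domain receptor (-0.49 ± 0.12), without p50. The median IL-10 effect over this list was -0.04 in IL10-/- cells and 0.04 without p50. With LPS 4 of these receptors rose and 5 fell in each genotype, 25.7% of the list against 24.8% and 32.4% of all genes. The rises were led by Cd40 (4.65 ± 0.16 and 5.02 ± 0.16), Fas (2.25 ± 0.11 and 2.51 ± 0.11) and Il15ra (1.32 ± 0.22 and 2.55 ± 0.22). The largest falls were those of Tnfrsf21 (-1.46 ± 0.12 and -1.31 ± 0.12) and the IL-7 receptor chain Il7r (-1.12 ± 0.20 and -1.01 ± 0.20).

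The genes whose 6 group means ran most like those of 4 of the receptors, by Pearson r among 1557 candidates, are given as a description over 6 groups. For Il4ra these were Gpr35 (0.986), Sting1 (0.986) and Tha1 (0.984). For Il13ra1 they were Ccl8 (0.982), Cysltr1 (0.974) and Gja1 (0.971), and for Il21r they were Pfkl (0.987), Riok3 (0.987) and Aacs (0.980). For Il6ra they were Hlx (0.999), Mavs (0.988) and Eri2 (0.988). Hlx read 9.11, 8.17 and 8.63 as group means over the 3 stimuli in IL10-/- cells and 8.79, 8.01 and 8.17 without p50.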

How the data were processed

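Gene expression was measured on 12 Affymetrix arrays, 2 for each of the 6 groups. The authors deposited 1 table of log2 values for 22690 probe sets; the submitters' processing notes name RMA and limma, without versions or roles. RMA gives arrays a common distribution, so a change in total RNA is not visible, and it compresses changes of dim genes. Control probe sets (64) were dropped, and 20380 others had 1 gene symbol, 691 several and 1555 no gene. Symbols came from the platform annotation, and gene IDs of 20351 probe sets matched the gene table. No genome build is given for the probe annotation in the sources used here.

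A mean per group was fitted with limma 3.58.1 in R 4.3.3 (6 residual and 4.47 prior degrees of freedom) in 11 contrasts, two-sided, adjusted over 12393 genes; the main probe set was that with the highest mean over the 12 arrays. Fits of single probe sets were adjusted over all 20380. With 2 arrays a side, the smallest p of an exact permutation test is 0.333. Standard errors come from the spread shared by the groups, with a median of 0.0998 log2. The procedure was also run on simulated data in which arrays varied independently. That run cannot show how deviations shared between arrays bear on the p-values. The receptors, gene lists and rules were chosen with earlier results of these data known. All 10 receptors are described with each of their probe sets; of each gene list, the text names partner chains and ligands and up to 3 of the largest called changes in each direction of a contrast. Genes of like pattern are the 3 with the highest correlation of group means, for receptors and candidates whose group means span at least 1 log2 unit. Marker means without the most variable marker were added after seeing the data. Alternatives were a replicate block, leaving out each array, median centring, other probe set choices, a filter on dim genes, an intensity trend with a robust prior, and a fit on only the groups compared. No 2 arrays held identical values.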

Additional observations from a re-analysis of the deposited data

How the results depend on the processing

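Under the alternatives there were 2190 gene values, of which 902 belonged to called results. Of those 902, 834 stayed called, 68 calls ended and 0 changed direction. Among the rest, 22 calls appeared and 40 values that were never called changed sign. Of all 2190, 2060 kept both their sign and their side of the threshold. Centring each array on its median left 2 of the 4 receptors called for LPS in IL10-/- cells. A fit on only the groups compared, which has fewer samples to estimate the spread, left 3 of 5 for IL-10 in IL10-/- cells and 1 of 4 for the genotype with LPS. Without stimulus the genotype count went from 1 to 2 in that fit and with an intensity trend and robust prior. Leaving out each array in turn gave 2 to 4 receptors (4 with all arrays) for LPS in IL10-/- cells, 6 to 7 (7) in p50-/-IL10-/- cells, 1 to 5 (5) and 2 to 5 (4) for IL-10, 6 to 7 (7) and 6 to 9 (8) for both against none, 1 to 2 (1), 1 to 5 (4) and 3 to 5 (5) for the genotype at the 3 stimuli, and 0 to 0 for both differences of responses; a group left with 1 array is assumed to vary like the others. Over all genes, the fit on only the groups compared called 1914 against 3078 for LPS and 283 against 765 for IL-10 in IL10-/- cells, and 581 against 1535 for the genotype with LPS. It called 78 against 147 and 10 against 17 for the differences of responses. Probe sets near the lower quartile give compressed changes.

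The labels do not say that replicate numbers pair the arrays, and no pairing was assumed. Deviations of same-numbered arrays correlated at 0.398 to 0.595 within IL10-/- cells, at 0.169 to 0.298 in the other comparisons that leave out p50-/-IL10-/- cells with LPS and IL-10, and at -0.492 to -0.173 in those with that group. With the replicate block across genotypes, all counts of receptors stayed as they were (4 and 7 for LPS, 5 and 4 for IL-10, 7 and 8 for both against none, 1, 4 and 5 for the genotype, 0 and 0 for the differences of responses). With the block within genotypes 9 receptors in place of 8 were called for LPS with IL-10 against no stimulus without p50, and 74 genes in place of 17 for the genotype difference of the IL-10 effect. A block with the numbers of that group crossed, chosen after seeing the data, called 6 receptors in place of 4 for IL-10 without p50 (Il13ra1 and Tnfrsf1b in addition; 1673 genes in place of 814) and 9 in place of 8 for both against none.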
